A study of Homo sapiens with 16 samples.

Results

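The genes described here are the 10 genes of lipid droplet storage and lipolysis HILPDA, PLIN2, PLIN3, G0S2, PNPLA2, ABHD5, LIPE, MGLL, DGAT1 and DGAT2, chosen by name. Of these, 8 were measured in both experiments, among 13475 genes that the experiments had in common, and PLIN2 and G0S2 were not analysed here. All 16 libraries came from LN229, an established human glioblastoma cell line. Regular culture was DMEM with fetal bovine serum. Ischemic culture combined low glucose, low glutamine and less serum with hypoxia, to mimic ischemia. The parts of serum, nutrients and oxygen in a difference between the cultures cannot be told apart. In experiment 1, regular and ischemic cells without any compound were compared in 2 libraries each. In experiment 2, cells of both cultures received DMSO, the vehicle, the p38α inhibitor VX745, or MK25, an inhibitor of MK2, the kinase that p38 activates, again with 2 libraries in each of the 6 groups. The purpose was to ask how tumor cells respond to ischemia and how much of that response needs p38 and MK2. Nothing in the labels states that replicates came from separate cultures, so p-values measure only the spread between these libraries, which may be technical.

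As background, a lipid droplet stores triacylglycerol and sterol esters under a phospholipid monolayer coated by perilipins such as PLIN2 and PLIN3. The acyltransferases DGAT1 and DGAT2 make triacylglycerol from diacylglycerol, and lipolysis takes it apart stepwise: PNPLA2 (adipose triglyceride lipase) acts on triacylglycerol, LIPE (hormone-sensitive lipase) mainly on diacylglycerol and MGLL on monoacylglycerol. ABHD5 activates PNPLA2, while G0S2 and HILPDA inhibit it, and HILPDA is a known target of hypoxia-inducible factors. Glioblastoma and other hypoxic tumors are known to accumulate lipid droplets.

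Library depth ranged from 20122017 to 37562668 reads recovered from the deposited values, and was 27239609 to 37562668 in the ischemic libraries of experiment 2 against 20122017 to 30228774 in the regular ones. A member with 3 reads would sit at a log2 normalized CPM (reads normalized to library size) between -2.71 and -2.16. The lowest read count of a member was 145, that of LIPE in Ischemic replicate 2 of experiment 1. The glioma markers VIM, NES, CD44, EGFR, SOX2 and S100B were expressed, GFAP was low at 21 to 55 reads per library, and of 8 markers of immune, endothelial, epithelial and fat cells only CD68 was analysed. In ischemic culture 2 of 8 glioma markers rose and 5 fell in experiment 1, from SOX2 (-3.11 on the log2 scale) to VIM (1.38), and 3 rose and 4 fell with DMSO in experiment 2, from SOX2 (-2.23) to VIM (1.27), the rise of CD44 there turning in sign under quantile normalization. CD68 rose by 0.77 and 0.94, and the part of these markers in the results was not tested. The ischemic label was checked with 9 hypoxia-induced genes outside the 10: all 9 rose in experiment 1 (median log2 fold change 4.42) and with DMSO in experiment 2 (median 4.24). In bulk libraries, fewer cells with a transcript and less of it per cell cannot be told apart.

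Ischemic culture was accompanied by a large rise of HILPDA, while the other 7 measured genes moved by at most 1.60-fold or did not pass the test. HILPDA rose 26.5-fold in experiment 1 and 18.3-fold with DMSO in experiment 2, the lipase PNPLA2 rose 1.19-fold and 1.26-fold, and DGAT2 and MGLL fell in both experiments. A member was called when it passed limma with adjustment over all genes (adjusted p under 0.05) and a limit of 2-fold. HILPDA alone of the 8 was called in each experiment, where 20.4% of all 13559 genes in experiment 1 and 17.1% of all 14024 genes in experiment 2 were called. Without a fold limit, 2 members rose and 2 fell in experiment 1, where 35.2% of all genes rose and 35.2% fell. With DMSO in experiment 2, 4 members rose and 2 fell, where 34.4% of all genes rose and 35.2% fell. The members' median log2 fold change was -0.10 and 0.21, beside -0.01 over all genes in each experiment. In the presence of an inhibitor the picture was similar: HILPDA alone was called with VX745 (14.5% of all genes) and with MK25 (13.9%). At any fold 4 members rose and 1 fell with VX745 (34% and 32.6% of all genes), and 4 rose and 3 fell with MK25 (33.5% and 33.7%). The share of members called was thus 1 of 8 throughout, no higher than that of all genes.

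In ischemic cells HILPDA and ABHD5 moved with both kinase inhibitors, and DGAT2 rose slightly with MK25. VX745 lowered HILPDA 1.34-fold and ABHD5 1.28-fold against DMSO in ischemic culture. MK25 raised HILPDA 1.60-fold and lowered ABHD5 1.53-fold. At a fold change of at least 1.5, the rule for inhibitors, VX745 called 0 of the 8 members (5.26% of all genes) and MK25 called 2 (9.67%). At any fold VX745 lowered 2 members and raised 0, where 14.9% of all genes were lowered, and MK25 raised 2 and lowered 1, where 19.8% were raised and 22% lowered. In regular culture, VX745 called none of the 8 at an adjusted p under 0.05 in limma (0.335% of all genes at any fold), with 2 members, PNPLA2 and LIPE, at an unadjusted p under 0.05 and 0 called by voom on the recovered reads. MK25 in regular culture called none at 1.5-fold (2.49% of all genes), and at any fold HILPDA rose and PNPLA2 fell, where 7% of all genes rose and 5.21% fell. Set against VX745 directly in regular culture, MK25 gave higher HILPDA and MGLL at any fold, 2 of 8 members beside 5.39% of all genes. The effect of an inhibitor differed between the cultures for 2 members with VX745 (11.8% of all genes) and 3 with MK25 (24.4%), and the first share moved by over 1.5 times with the library left out (601 to 2038 genes, beside 1653). Both inhibitors were set against the same DMSO libraries.

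**Figure D1:**
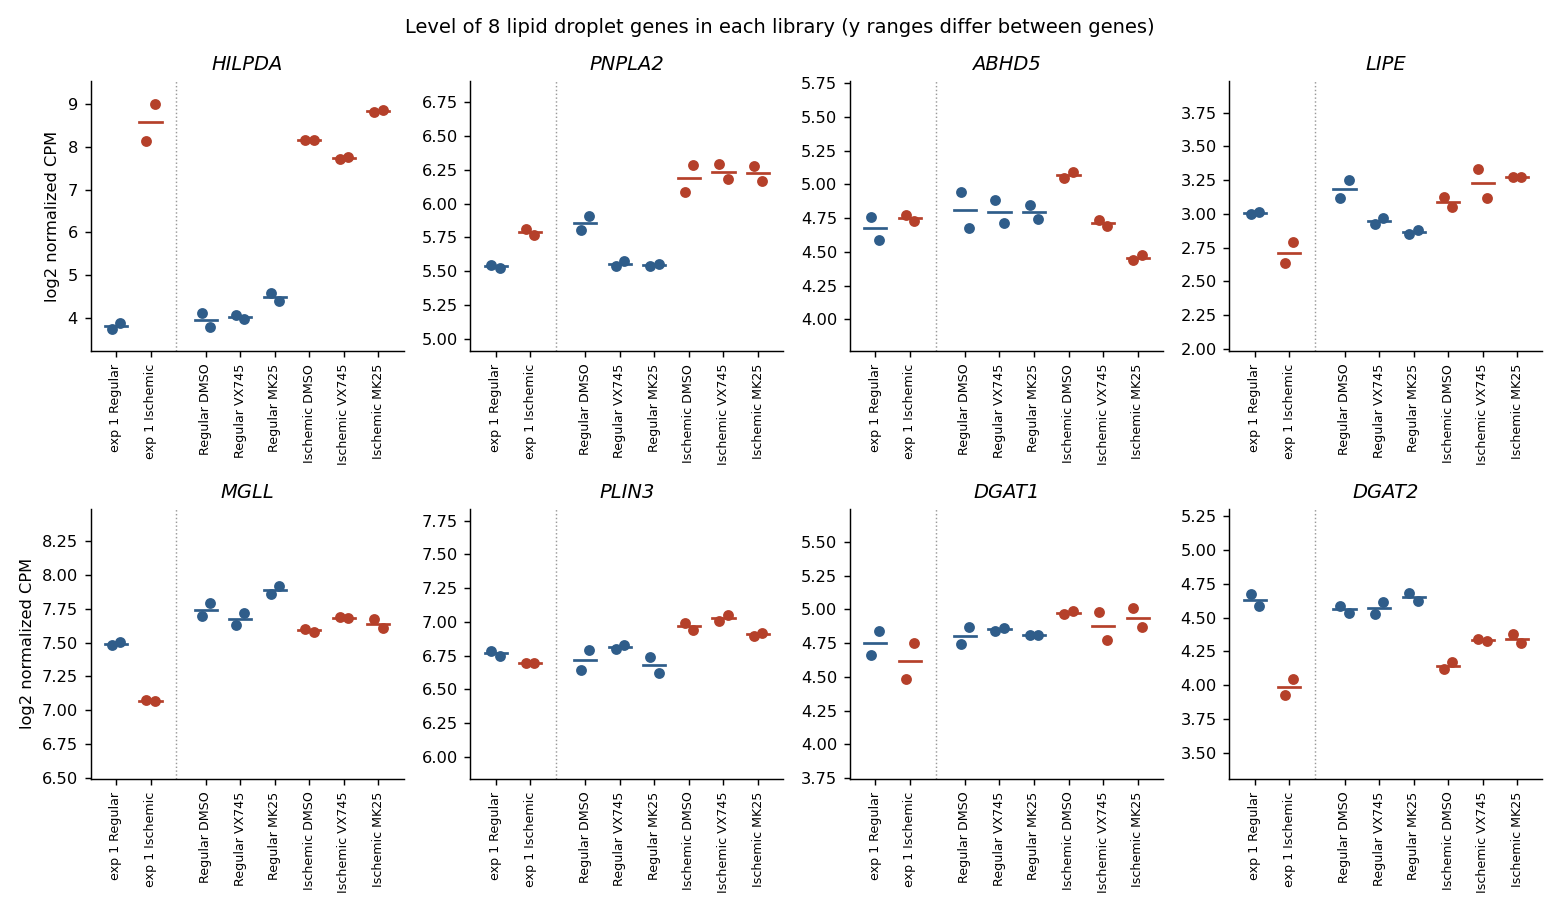
Level of the 8 measured genes in each library, as log2 normalized CPM on the y axis, with groups along the x axis, blue points for regular and red points for ischemic libraries, and bars at group means; the dotted line separates experiment 1 (left) from experiment 2. HILPDA lies between 3.76 and 4.58 in the regular libraries and between 7.71 and 9.0 in the ischemic ones, while each other gene stays within about 1 unit (y ranges differ between genes).

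HILPDA (Entrez 29923, chr7:128455878-128458418, GRCh38) encodes a small droplet protein that inhibits PNPLA2. In experiment 1 its log2 normalized CPM was 3.76 and 3.90 in the regular libraries and 8.12 and 9.0 in the ischemic ones. In experiment 2 it was 4.11 and 3.80 with DMSO in regular culture and 8.16 and 8.14 with DMSO in ischemic culture. The groups were far apart in both experiments, although the ischemic replicates of experiment 1 differed from each other by more than any other pair for this gene. The log2 fold change was 4.73 ± 0.19 (SE, n = 2 per group; limma adjusted p = 7.47e-10) in experiment 1 and 4.20 ± 0.08 (limma adjusted p = 3.02e-17) in experiment 2. Leaving out an ischemic library of experiment 1 gave 4.29 or 5.17. Some exon bases of HILPDA are also exonic in genes annotated on the same strand, 13.64% in HILPDA-AS1 and 10.7% in an unnamed gene. The reads of these genes could not be told apart there.

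With VX745 in ischemic culture, the HILPDA level was 7.71 and 7.76, below both ischemic DMSO libraries. With MK25 it was 8.81 and 8.85, above both of them. The 3 ischemic groups therefore did not overlap, in the order MK25, DMSO, VX745, and each step passed the test. The log2 fold change was -0.42 ± 0.08 (limma adjusted p = 0.00138) for VX745 and 0.68 ± 0.08 (limma adjusted p = 8.41e-06) for MK25, and MK25 exceeded VX745 directly by 1.09 ± 0.08 (limma adjusted p = 4.94e-08, 2.14-fold). That direct comparison called HILPDA alone among the members, with 3.96% of all genes called at 1.5-fold. The 3 HILPDA differences in ischemic culture kept an adjusted p under 0.05 under every alternative fit. The VX745 change is under the 1.5-fold limit, and that with MK25 is over it and under 2-fold.

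With VX745 in ischemic culture 7 of the 9 hypoxia-induced genes fell (median log2 fold change of the 9 -0.36, range -0.54 to -0.04), none of them 1.5-fold, and under quantile normalization 3 did (median -0.16). With MK25 in ischemic culture 1 of the 9, EGLN3, rose and 1, SLC2A1, fell, the latter with a sign that turned under quantile normalization, and the median of the 9 was -0.12, or 0.13 under quantile normalization. In regular culture with MK25, 8 of the 9 rose (median 0.93). Of all genes, 14.9% fell with VX745 in ischemic culture, 19.8% rose and 22% fell with MK25 there, and 7% rose with MK25 in regular culture. The part of the hypoxia response in the HILPDA values was not tested.

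In regular culture HILPDA was 4.58 and 4.40 with MK25, above both DMSO libraries, and 4.07 and 3.98 with VX745, within the DMSO range. MK25 raised it by 0.54 ± 0.08 on the log2 scale (limma adjusted p = 0.000381, 1.45-fold), and the value with VX745 differed from DMSO by 0.07 (95% interval -0.10 to 0.25). The effect of VX745 on HILPDA differed between the cultures by -0.49 ± 0.12 (limma adjusted p = 0.0134), a difference that did not pass in 6 of 16 alternatives, for example without Regular DMSO replicate 2 (-0.33, adjusted p = 0.0583). Directly compared in regular culture, MK25 exceeded VX745 by 0.47 ± 0.08 (limma adjusted p = 0.00197), which did not pass without a variance trend (adjusted p = 0.0569). No difference between cultures passed for MK25 (0.14 ± 0.12, adjusted p = 0.422, 95% interval -0.11 to 0.39). In the order of the 6 group means, only Regular VX745 and Regular DMSO overlapped.

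PNPLA2 (Entrez 57104, chr11:818914-825573) encodes the lipase that starts triacylglycerol breakdown. Its upstream window is shown because its level followed the culture in each comparison, and that of ABHD5, its activator, because ABHD5 fell with MK25 in ischemic cells. Each is the RefSeq sequence of the 250 bases before the gene's start (GRCh38.p14), 5′ to 3′ on the gene's strand, with capitals marking any match to ACGTG or GCGTG, the core letters bound by hypoxia-inducible factors, or to the forkhead motif GTAAACA, on either strand.
PNPLA2, chr11:818664-818913, plus strand: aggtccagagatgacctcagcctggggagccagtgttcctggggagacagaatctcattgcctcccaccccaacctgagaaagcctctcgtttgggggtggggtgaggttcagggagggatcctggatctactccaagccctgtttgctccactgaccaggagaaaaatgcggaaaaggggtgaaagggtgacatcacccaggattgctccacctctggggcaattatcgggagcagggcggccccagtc
ABHD5, chr3:43690620-43690869, plus strand: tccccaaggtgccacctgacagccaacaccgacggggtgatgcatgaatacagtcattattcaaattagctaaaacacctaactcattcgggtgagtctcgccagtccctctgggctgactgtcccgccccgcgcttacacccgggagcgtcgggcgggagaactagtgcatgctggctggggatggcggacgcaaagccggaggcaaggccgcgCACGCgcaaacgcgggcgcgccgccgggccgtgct
PLIN3, chr19:4867668-4867917, minus strand: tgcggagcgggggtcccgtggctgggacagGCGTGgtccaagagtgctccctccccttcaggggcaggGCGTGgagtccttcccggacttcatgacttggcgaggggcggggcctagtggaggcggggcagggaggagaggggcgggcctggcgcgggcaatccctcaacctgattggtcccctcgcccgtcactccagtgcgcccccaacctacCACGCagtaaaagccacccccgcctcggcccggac

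The PNPLA2 window held none of these motifs. The ABHD5 window held GCGTG once, on the minus strand starting 35 bases before the gene's start. The PLIN3 window held it 3 times. PLIN3, a coat gene, rose in ischemic culture of experiment 2 but did not pass in experiment 1. Of 35116 windows of the same length in the table, 18.5% held ACGTG, 32.2% held GCGTG, 43.2% held at least 1 of these, and 2.98% held GTAAACA. Of 2 further ABHD5 windows in the table, from later starts, 1 held the same match, 103 bases before its start, and 1 held none. Of the 10 genes 6 had a window, of which 4 were measured. The 2 windows of LIPE held no match, and those of PLIN2 and G0S2, which were not analysed here, held 4 matches each. HILPDA, MGLL, DGAT1 and DGAT2 were not among them. A match of such short letters is a description of the sequence and no evidence of binding.

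In experiment 1 PNPLA2 was 5.55 and 5.53 in regular and 5.81 and 5.77 in ischemic culture. With DMSO in experiment 2 it was 5.80 and 5.91 in regular and 6.09 and 6.29 in ischemic culture. Each ischemic library lay above each regular one of its experiment, by a small margin. The log2 fold change was 0.25 ± 0.07 (limma adjusted p = 0.00861) in experiment 1, which became 0.24 with an adjusted p of 0.0546 without Regular replicate 2, and 0.33 ± 0.07 (limma adjusted p = 0.000567) in experiment 2. The exons of an unnamed opposite-strand gene cover 13.7% of the PNPLA2 exon bases.

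In ischemic culture PNPLA2 was 6.29 and 6.18 with VX745 and 6.28 and 6.17 with MK25, within or beside the DMSO range. The difference from DMSO was 0.05 (95% interval -0.10 to 0.20) for VX745 and 0.04 (-0.12 to 0.19) for MK25, and neither passed. In regular culture it was 5.54 and 5.58 with VX745 and 5.54 and 5.55 with MK25, and all these libraries lay below both DMSO libraries. MK25 lowered it by 0.31 ± 0.07 on the log2 scale (limma adjusted p = 0.0087, 1.24-fold). That fall did not pass without a variance trend (limma adjusted p = 0.0602) or without Regular DMSO replicate 2 (-0.26). The VX745 value of -0.30 was similar in size but did not pass (limma adjusted p = 0.0869). It was -0.35 to -0.25 over 12 alternatives and passed in 1 of them. Hence the ischemic minus regular difference of PNPLA2 was 0.68 with VX745 and 0.68 with MK25, each 1.60-fold, beside 0.33 with DMSO. The 2 inhibitors' effects differed between the cultures by 0.35 ± 0.10 each (limma adjusted p = 0.0341 for VX745 and 0.0186 for MK25). The VX745 difference did not pass in 7 of 16 alternatives and that of MK25 in 4 of 16, among them that without Ischemic DMSO replicate 1, where both values were 0.25 (adjusted p = 0.175 and 0.114).

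ABHD5 (Entrez 51099, chr3:43690870-43734371) encodes the activator of PNPLA2. Its log2 normalized CPM in experiment 1 was 4.76 and 4.59 in regular and 4.77 and 4.73 in ischemic culture. The groups overlapped, and the difference of 0.08 ± 0.09 did not pass (limma adjusted p = 0.482). With DMSO in experiment 2 it was 4.95 and 4.68 in regular and 5.05 and 5.09 in ischemic culture. There it rose by 0.26 ± 0.09 on the log2 scale (limma adjusted p = 0.0156), but did not pass without 1 library of either group: without Regular DMSO replicate 2 it was 0.12 (adjusted p = 0.252) and without Ischemic DMSO replicate 2 it was 0.23 (adjusted p = 0.0778).

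With VX745 in ischemic culture ABHD5 was 4.74 and 4.69, and with MK25 it was 4.44 and 4.48. The 3 ischemic groups did not overlap, in the order DMSO, VX745, MK25. VX745 lowered ABHD5 by 0.36 ± 0.09 on the log2 scale (limma adjusted p = 0.00638), which became an adjusted p of 0.0552 without Ischemic VX745 replicate 2. MK25 lowered it by 0.61 ± 0.09 (limma adjusted p = 3.95e-05), which passed under all 12 alternatives. The direct difference between MK25 and VX745, -0.26 ± 0.09, did not pass (adjusted p = 0.0516), although it passed in 4 alternatives. In regular culture the values were 4.88 and 4.72 with VX745 and 4.85 and 4.74 with MK25, inside the DMSO range. The difference from DMSO there was -0.01 (95% interval -0.20 to 0.17) for VX745 and -0.02 (-0.20 to 0.17) for MK25. The effect of MK25 on ABHD5 differed between cultures by -0.59 ± 0.12 (limma adjusted p = 0.00239), which passed under all 16 alternatives. For VX745 that difference was -0.34 ± 0.12 and did not pass (adjusted p = 0.0864).

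**Figure D2:**
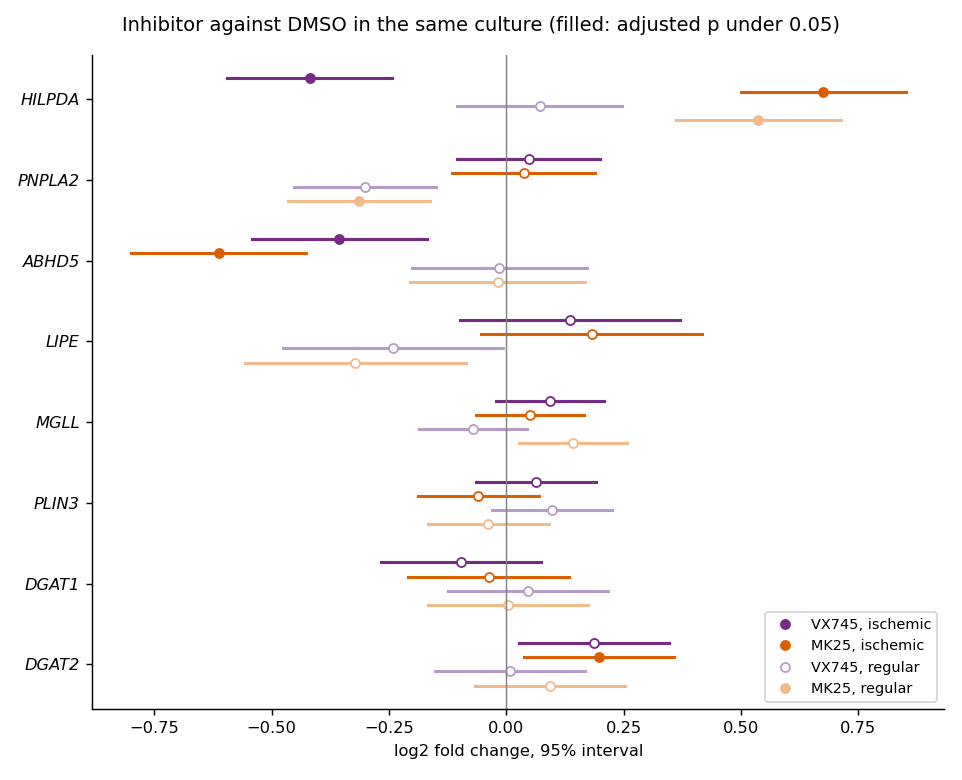
Log2 fold change of each measured gene with an inhibitor against DMSO in the same culture (x axis) with its 95% interval (lines), for VX745 (purple) and MK25 (orange) in ischemic (dark) and regular (pale) culture; filled points have an adjusted p under 0.05 in limma. HILPDA is the gene with filled points on both sides of 0, at -0.42 with VX745 and 0.68 with MK25 in ischemic culture, and ABHD5 lies below 0 in ischemic and near 0 in regular culture.

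In ischemic cells PNPLA2 differed between MK25 and VX745 by -0.01 on the log2 scale (95% interval -0.16 to 0.14), while HILPDA, its inhibitor, differed by 1.09. On a per-length scale (normalized CPM per kilobase of the MANE transcript), the ratio of HILPDA to PNPLA2 was 0.408 to 0.547 in Regular DMSO and 6.42 to 7.44 in Ischemic DMSO libraries. It was 4.72 to 5.29 with VX745 and 10.2 to 11.3 with MK25 in ischemic culture, so that the ranges of these 3 ischemic groups did not overlap. The 2 Ischemic libraries of experiment 1, without compound, gave 8.80 and 16.6, on either side of the MK25 range. The ratio of ABHD5 to PNPLA2 was 0.199 to 0.221 in Ischemic DMSO, 0.155 to 0.162 in Ischemic VX745 and 0.127 to 0.141 in Ischemic MK25 libraries. Among the 8 genes per length, HILPDA ranked at position 4 in each regular library of experiment 2 and at 1 in each ischemic library of both experiments. Its share of the summed per-length level of the 8 went from 6.29 to 8.18% in Regular DMSO to 56.9 to 57.5% in Ischemic DMSO, 48.4 to 49.7% in Ischemic VX745 and 67.6 to 68.9% in Ischemic MK25 libraries. In the Ischemic libraries of experiment 1 the share was 62.9 and 75.6%. These ratios describe transcripts and were not tested separately from the genes' own tests.

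**Figure D3:**
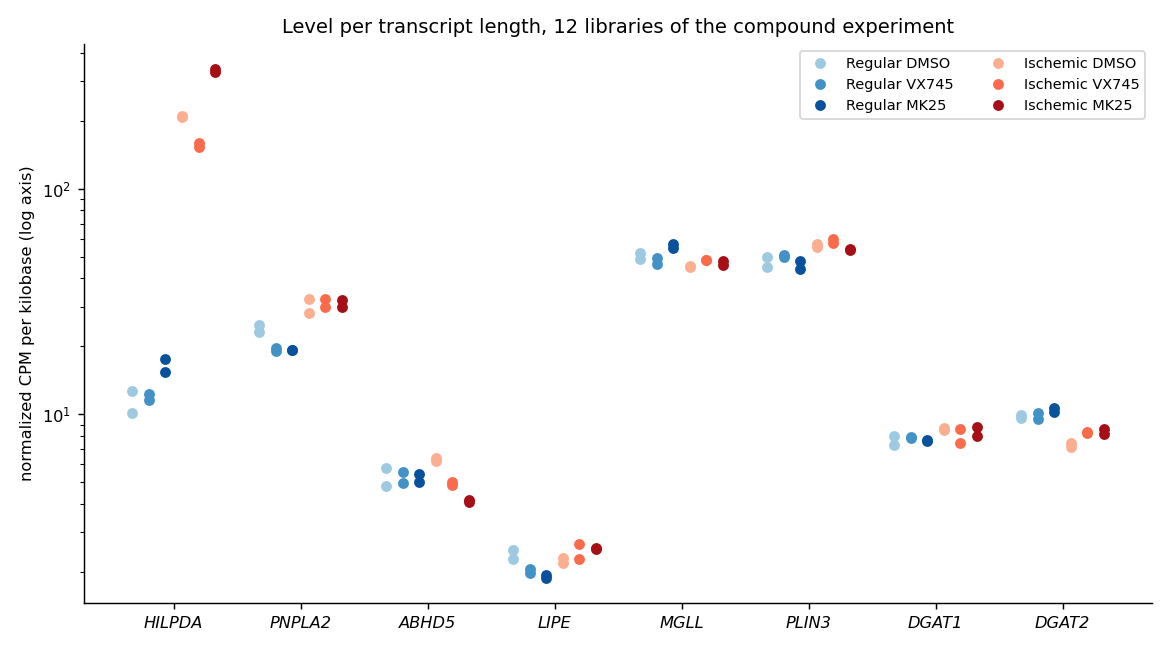
Normalized CPM per kilobase of transcript (y axis, log scale) of the 8 measured genes (x axis) in the 12 libraries of experiment 2, with 1 point per library, colored by group. HILPDA moves from the middle of the genes in regular culture (group mean 11.4 with DMSO) to the top in ischemic culture (208 with DMSO, 156 with VX745, 333 with MK25), and the other 7 genes move little by comparison.

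LIPE (Entrez 3991, chr19:42401514-42427388) was the lowest of the 8 genes per length in experiment 2, at group means of 1.91 to 2.55 normalized CPM per kilobase. Its log2 normalized CPM was 3.0 and 3.01 in regular and 2.63 and 2.79 in ischemic culture of experiment 1. With DMSO in experiment 2 it was 3.12 and 3.25 in regular and 3.13 and 3.05 in ischemic culture. Neither difference passed (-0.29 ± 0.14, adjusted p = 0.0749, and -0.10 ± 0.11, adjusted p = 0.454, in limma). The experiment 1 difference passed in 3 of 11 alternatives, those without a variance trend and with median centring among them. The experiment 1 groups did not overlap while those of experiment 2 did. With the inhibitors LIPE in regular culture was lower, at 2.92 and 2.97 with VX745 and 2.85 and 2.88 with MK25, but neither fold change passed (-0.24, adjusted p = 0.326, and -0.32, adjusted p = 0.0681). Ischemic VX745 libraries were at 3.34 and 3.12, and Ischemic MK25 libraries at 3.27 and 3.28. The ischemic minus regular difference was 0.28 ± 0.11 with VX745 (limma adjusted p = 0.0344, lost without either regular VX745 library or Ischemic VX745 replicate 1, where it was 0.17, and under median centring or quantile normalization) and 0.41 ± 0.11 with MK25 (adjusted p = 0.00377). The effect of MK25 differed between cultures by 0.50 ± 0.16 (adjusted p = 0.0271), which did not pass in 6 of 16 alternatives, for example without Regular DMSO replicate 2 (0.44, adjusted p = 0.0882).

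MGLL (Entrez 11343, chr3:127689066-127823185), which releases glycerol and the last fatty acid, fell in ischemic culture of both experiments. Its log2 normalized CPM was 7.48 and 7.5 in regular and 7.07 and 7.07 in ischemic culture of experiment 1, a fall by 0.42 ± 0.06 (limma adjusted p = 8.1e-05, 1.34-fold). With DMSO it was 7.70 and 7.79 in regular and 7.60 and 7.58 in ischemic culture, a fall by 0.15 ± 0.05 (adjusted p = 0.0184, 1.11-fold). The groups did not overlap in either experiment, but the second fall was lost without Regular DMSO replicate 2 (-0.11, adjusted p = 0.142) or either ischemic DMSO library (-0.16 and -0.14, adjusted p = 0.0569 and 0.089). With MK25 the ischemic minus regular difference was -0.25 ± 0.05 (adjusted p = 0.000702), and with VX745 it was 0.01 (95% interval -0.10 to 0.13). No inhibitor passed against DMSO in either culture, although in ischemic culture both did under quantile normalization (0.20 for VX745 and 0.17 for MK25, adjusted p = 0.016 and 0.0211). MK25 exceeded VX745 in regular culture by 0.21 ± 0.05 (adjusted p = 0.0267), which did not pass without Regular MK25 replicate 2 (0.18, adjusted p = 0.167) or Regular VX745 replicate 1 (0.17, adjusted p = 0.181), without a variance trend (adjusted p = 0.105) or with only the groups compared (adjusted p = 0.113).

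PLIN3 (Entrez 10226, chr19:4838341-4867667) encodes a perilipin of the droplet coat that cells of many types express. In experiment 1 it was 6.79 and 6.75 in regular and 6.70 and 6.69 in ischemic culture, and the difference of -0.07 ± 0.07 did not pass (limma adjusted p = 0.348). With DMSO in experiment 2 it was 6.64 and 6.79 in regular and 6.99 and 6.94 in ischemic culture, a rise by 0.25 ± 0.06 (adjusted p = 0.00157, 1.19-fold). All 6 ischemic libraries of experiment 2, at 6.90 to 7.05, lay above all 6 regular ones, at 6.62 to 6.83. It rose likewise with VX745 (0.21, adjusted p = 0.00494, or 0.19 and 0.0503 without Ischemic VX745 replicate 2) and with MK25 (0.23, adjusted p = 0.00337). The experiments were normalized separately, so the difference between them was not tested. Neither inhibitor passed against DMSO. An unnamed gene on the opposite strand covers 22.5% of the PLIN3 exon bases.

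DGAT2 (Entrez 84649, chr11:75768778-75801534), an acyltransferase of triacylglycerol synthesis, fell in ischemic culture in each of the 4 comparisons, whereas DGAT1 (Entrez 8694, chromosome 8), which catalyzes the same step, passed in none. DGAT2 was 4.67 and 4.58 in regular and 3.93 and 4.05 in ischemic culture of experiment 1, a fall by 0.64 ± 0.10 (limma adjusted p = 9.08e-05, 1.56-fold). With DMSO it was 4.59 and 4.54 in regular and 4.12 and 4.17 in ischemic culture, a fall by 0.42 ± 0.08 (adjusted p = 0.000102, 1.34-fold). The groups did not overlap in either experiment. The fall was 0.24 ± 0.08 with VX745 (adjusted p = 0.0109) and 0.31 ± 0.08 with MK25 (adjusted p = 0.00154). Without Ischemic VX745 replicate 2 or Regular VX745 replicate 2 the VX745 value was -0.23 or -0.19 and no longer passed (adjusted p = 0.0604 and 0.0869).

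In ischemic culture DGAT2 was 4.34 and 4.32 with VX745 and 4.37 and 4.31 with MK25, above both DMSO libraries. MK25 raised it by 0.20 ± 0.08 (limma adjusted p = 0.0451), which is under the 1.5-fold limit and did not pass in 8 of 12 alternatives, each of the 4 that left out a library among them (0.17 to 0.23, adjusted p = 0.0726 to 0.203). The VX745 value of 0.19 ± 0.08 did not pass (adjusted p = 0.0716). DGAT1 was between 4.48 and 5.01 in all 16 libraries. For ischemic against regular culture it gave -0.13 ± 0.11 in experiment 1 (limma adjusted p = 0.285). With DMSO in experiment 2 it gave 0.17 ± 0.08 (limma adjusted p = 0.0703). Each passed in 1 alternative, at -0.27 without Ischemic replicate 2 and at 0.24 without Regular DMSO replicate 2. DGAT1 passed for no inhibitor. The per-length ratio of DGAT1 to DGAT2 was 0.655 to 0.786 in regular and 0.969 to 1.08 in ischemic libraries of experiment 1, and 0.733 to 0.832 against 1.16 to 1.19 with DMSO. An unnamed opposite-strand gene covers 17.57% of the DGAT2 exon bases. An unnamed same-strand gene covers 12.15% of those of DGAT1, and HSF1 on the opposite strand covers 3.75%.

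**Figure D4:**
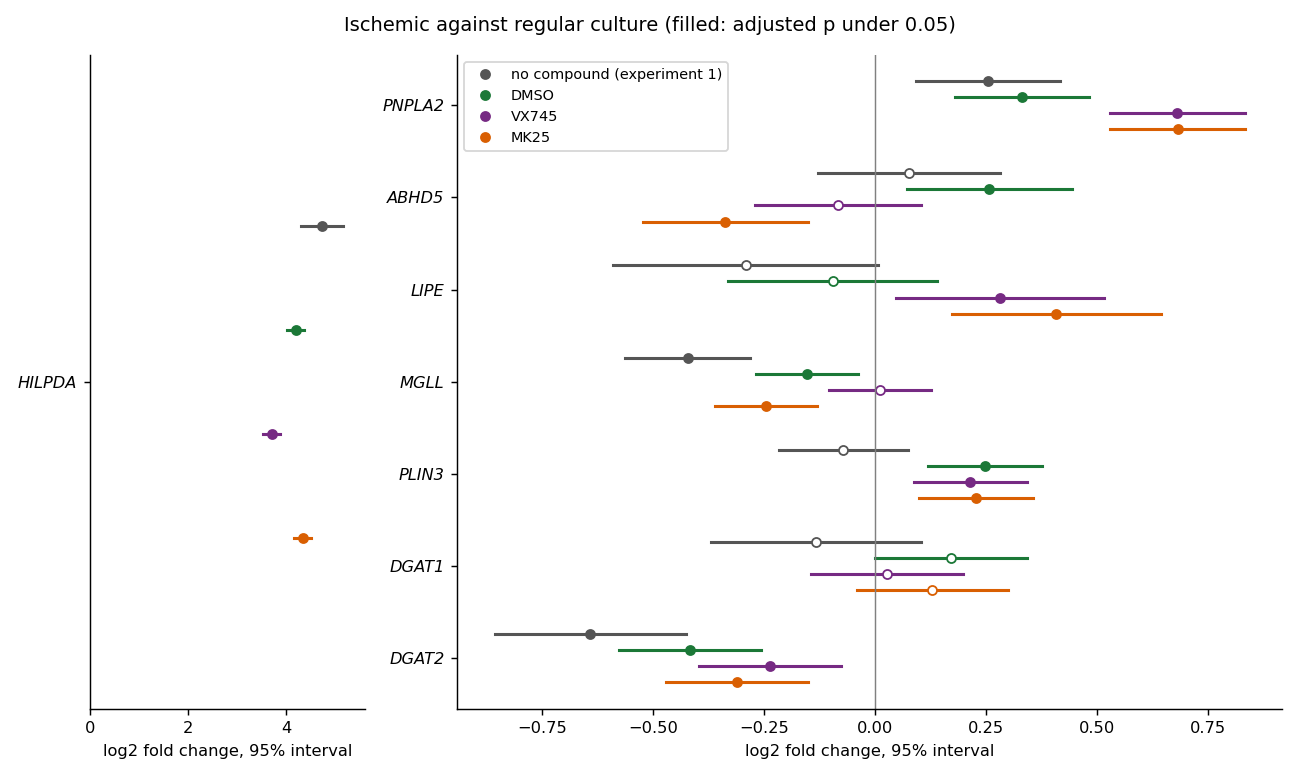
Log2 fold change of ischemic against regular culture (x axis) with its 95% interval (lines) for each measured gene, without compound in experiment 1 (gray) and with DMSO (green), VX745 (purple) or MK25 (orange) in experiment 2; filled points have an adjusted p under 0.05 in limma, and HILPDA has its own axis. HILPDA lies between 3.70 and 4.73, PNPLA2 is above and DGAT2 below 0 in all 4 comparisons, and ABHD5 goes from 0.26 with DMSO to -0.34 with MK25.

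Across the 12 libraries of experiment 2, the genes whose levels were most like those of HILPDA, among 10053 genes averaging 3 or more on the log2 scale, were UCN2 (Pearson r = 0.998), NRN1 (r = 0.997) and KIAA2013 (r = 0.997). For PNPLA2 they were NOA1 (r = 0.991), FBXO46 (r = 0.983) and ZNF628 (r = 0.981). With HILPDA 984 genes had an r over 0.95, and with PNPLA2 77 did. Between members, r was 0.89 for HILPDA and PNPLA2, -0.86 for HILPDA and DGAT2 and -0.21 for HILPDA and ABHD5. The libraries share their culture, of which 6 were ischemic, so these values describe mostly that split and carry no test.

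Of the neighboring genes in 7 lists, ANGPTL4 of the uptake list had the largest change in ischemic culture of both experiments. ANGPTL4, a secreted inhibitor of lipoprotein lipase, rose by 8.95 in experiment 1, from 12 to 17 reads per regular library, and by 7.49 with DMSO in experiment 2 on the log2 scale. VLDLR, a lipoprotein receptor, rose by 3.24 and 3.29. Of the 11 genes of fatty acid uptake and binding analysed of 16 listed, 3 were called higher and 3 lower in experiment 1, SLC27A4 (-1.38) and DBI (-1.06) having the largest falls, and 2 higher and 0 lower in experiment 2. Their median log2 fold change was 0.36 and 0.37. Of all genes, 20.4% were called in experiment 1 and 17.1% with DMSO in experiment 2, the shares to set beside each list. At any fold 35.2% of all genes rose and 35.2% fell in experiment 1, and 34.4% and 35.2% in experiment 2.

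Of 10 other neutral lipid hydrolases and sterol acyltransferases analysed (14 listed), 2 were called lower and 0 higher in experiment 1. These were ABHD6 (-1.77), a monoacylglycerol hydrolase, and SOAT1 (-1.59), which makes cholesterol esters, beside 20.4% of all genes called. At any fold 6 fell and 1 rose there (35.2% and 35.2% of all genes). With DMSO in experiment 2, 3 were called lower and 0 higher (17.1% of all genes called), led by ABHD6 (-1.42) and NCEH1 (-1.17). At any fold 8 fell and 1 rose (35.2% and 34.4% of all genes), with a median of -0.60. In glycerolipid synthesis, GPAM, an acyltransferase of its initial step, fell (-1.24 and -1.44), while LPIN2 rose by 1.29 in experiment 1 and GPAT2 by 1.31 in experiment 2. These were the genes called, 1 in each direction of 13 and 14 analysed (19 listed).

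Of the 8 other genes of coat and assembly analysed in experiment 2 (7 in experiment 1, of 14 listed), 1 was called, PLIN4 (-1.06), which had 8 to 29 reads in the DMSO libraries, and 0 in experiment 1. Mitochondrial fatty acid oxidation had 0 of 18 genes called in either experiment, and at any fold 5 rose and 7 fell in experiment 1 and 7 rose and 4 fell in experiment 2 in limma (20 listed). Of 8 genes of adrenergic and protein kinase A control analysed (12 listed), 4 were called lower in experiment 1, among them the phosphodiesterase PDE3A (-1.45), and 3 in experiment 2, among them the glycerol channel AQP3 (-1.62); 0 were called higher. Among 11 transcriptional regulators (12 listed), EPAS1, which encodes HIF-2α, rose by 3.59 and 2.44, PPARGC1B (-2.78 and -2.60) and FOXO1 (-1.37 and -1.25) fell, and PPARGC1A rose by 1.09 in experiment 1.

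With VX745 in ischemic culture 1 gene each was called in 4 of the lists, beside 5.26% of all genes called. PNPLA3 (0.62), AQP3 (0.77) and PPARGC1B (0.84) were higher and ANGPTL4 (-0.94) was lower. Under quantile normalization the hydrolase list (PNPLA3) and the adrenergic list (AQP3) had 0 genes called. Among the genes called with MK25 in ischemic culture, the phosphatidate phosphatase LPIN1 rose by 1.29, PNPLA3 by 1.5, ABHD6 by 0.70, PDE3A by 0.68, PPARGC1B by 1.28 and EPAS1 by 0.67, and GPAT3 fell by 0.89. Of the 11 regulators, 4 were called higher and 0 lower with MK25 there, beside 9.67% of all genes called. Under quantile normalization 3 regulators, 1 hydrolase and 0 adrenergic genes were called higher there, beside 4, 2 and 1 in the main fit. In regular culture LPIN1 (1.12), PNPLA3 (1.60), VLDLR (1.31), EPAS1 (0.92) and PPARGC1A (0.67) were among the genes called higher with MK25 (2.49% of all genes called). VX745 in regular culture called none of the 80 listed genes at any fold in limma (0.335% of all genes), with 12 at an unadjusted p under 0.05. Coat and assembly genes had no call with either inhibitor in either culture.

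**Figure D5:**
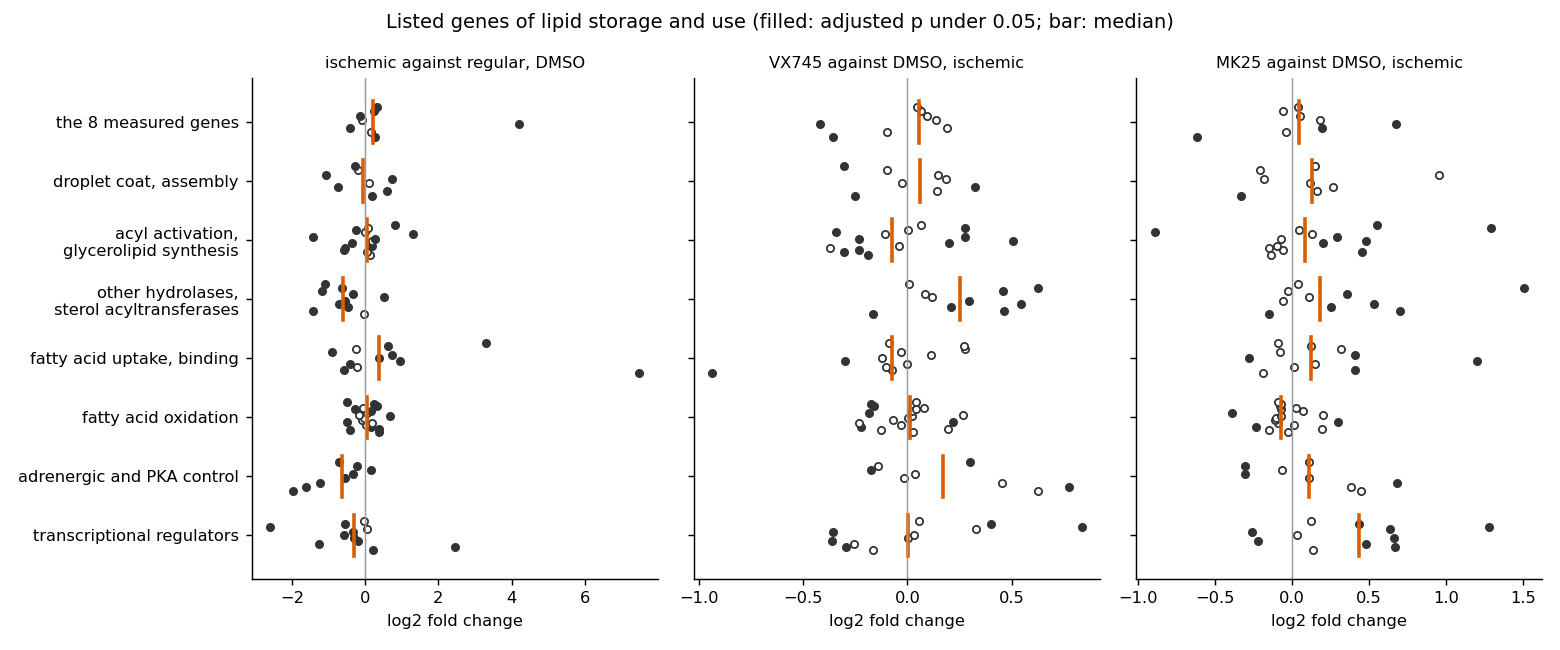
Log2 fold change (x axis) of the 8 measured genes and of the analysed genes of 7 lists of lipid storage and use (y axis, 1 point per gene, orange bar at the median) in ischemic against regular culture with DMSO (left), and with VX745 (middle) and MK25 (right) against DMSO in ischemic culture; filled points have an adjusted p under 0.05 in limma and x ranges differ. ANGPTL4 (7.49), HILPDA (4.20), VLDLR (3.29) and EPAS1 (2.44) lie farthest to the right in the left panel.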

How the data were processed

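RNA was extracted with TRIzol, and libraries were prepared with the SMART-Seq mRNA HT and Nextera XT kits, which do not mark strand. Per the submitters' processing notes and methods, the authors aligned reads with HISAT2 to GRCh38 and used edgeR. The read counter is not given in the sources used here. The deposited values are log2 normalized CPM per gene, 1 table per experiment, each normalized on its own (13559 and 14024 genes). 100% of the values gave back whole reads, within a tolerance of 0.05 reads, with an offset averaging 2.08 reads in experiment 1 and 2.00 in experiment 2 inside the logarithm. A fold change is on this scale and understates the change of low genes. Entrez identifiers were matched to symbols for 99.4% and 99.3% of genes.

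Because the values are logarithms, limma 3.58.1 (R 4.3.3, empirical Bayes with a variance trend) was fitted to all genes of each experiment, with 1 mean per group. Two-sided p-values were adjusted (Benjamini-Hochberg) across all genes of an experiment. "Rose" and "fell" mean an adjusted p under 0.05, and a call also needs a fold change of at least 2 for culture or 1.5 for inhibitors. On simulated data with a log2 change of 1 in 100 genes, 97 were recovered for ischemia in experiment 1 (13559 genes). For VX745 in ischemic culture 99 were (14024 genes). Recovery meant an adjusted p under 0.05 with the right sign, without the fold limit of a call. The simulated spread was the same for all genes and was not taken from these libraries. In all, 12 comparisons were made, and 8 members were read from each.

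The members and the gene lists were chosen with earlier results of these data known. The genes named are the 10 members in every comparison, the 2 largest called rises and falls of each of the 7 pathway lists, the 3 genes most correlated with HILPDA and PNPLA2, and genes used as label checks. Some genes that this rule names are not reported here. Alternatives were no variance trend, a minimum of 1 CPM, median centring, quantile normalization, the replicate number as a block, voom on recovered reads, an offset of 0.5 reads, only the groups compared, other fold limits and leaving out each library. Intervals cover 95%.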

Additional observations from a re-analysis of the deposited data

Results flagged for a closer look

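In 5 cases the effect of an inhibitor on a member differed between ischemic and regular culture by the interaction term of the limma fit, at an adjusted p under 0.05 over all 14024 genes. Of all genes, 11.8% passed this test for VX745 and 24.4% for MK25, and 2 and 3 of the 8 members did. HILPDA differed by -0.49 on the log2 scale with VX745, falling in ischemic culture and staying within the DMSO range in regular culture. PNPLA2 differed by 0.35 with VX745 and by 0.35 with MK25, with values below DMSO in regular culture and near DMSO in ischemic culture. ABHD5 differed by -0.59 with MK25, and both ischemic MK25 libraries lay below all other libraries of experiment 2. LIPE differed by 0.50 with MK25. The comparisons for the 2 inhibitors share the 4 DMSO libraries.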

How the results depend on the processing

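Of 96 member results (8 genes in 12 comparisons), 37 passed an adjusted p of 0.05, of which 22 did so under every alternative and 28 under every one that kept all libraries. Of the 59 that did not pass, 9 passed under at least 1 alternative, and 0 changed sign while called. Without a fold limit, 4 of the 8 members were called for ischemia in experiment 1 (9540 of 13559 genes) and 6 with DMSO (9759 of 14024 genes). For ischemia with VX745 and with MK25 they numbered 5 and 7 (9340 and 9418 of 14024 genes). They numbered 2 each for VX745 in ischemic culture (4051 genes), MK25 in regular culture (1712) and MK25 against VX745 in regular culture (756). A limit of 1.5 gave 2 members for ischemia in experiment 1 (5620 of 13559 genes), with VX745 (4627 of 14024) and with MK25 (4576). For the difference between cultures it gave 0 members with VX745 (433 genes) and 1 with MK25 (1113). A limit of 2 gave 0 for MK25 in ischemic culture (384 genes). For the VX745 difference between cultures, no variance trend gave 0 members and quantile normalization gave 1. Leaving out 1 library gave 0 to 3 members for the VX745 difference between cultures (3 without Regular DMSO replicate 1, 0 without Ischemic VX745 replicate 1, Regular VX745 replicate 1, Ischemic DMSO replicate 1 or Regular DMSO replicate 2), 1 to 3 for the MK25 difference (1 without Ischemic MK25 replicate 1 or Regular DMSO replicate 2) and 0 to 1 for MK25 in regular culture (1, HILPDA, without Regular MK25 replicate 2 or Regular DMSO replicate 1). Over all genes, the 1653 that passed for the VX745 difference became 594 without a variance trend, 1026 under quantile normalization and 601 to 2038 without 1 library. Quantile normalization moved the share of higher genes among those called in ischemic culture from 82.8% to 62.7% for VX745 and from 72.6% to 56.4% for MK25. Where 1 library was left out, the lone library is assumed to vary like the other groups.

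The deviations of same-numbered replicates from their group means had a correlation of 0.271 in the 1 pair of groups of experiment 1. Over 15 pairs in experiment 2 it was -0.27 to 0.32, with 4 of them over 0.1. The main fit took the replicates to share only a number, a choice that these values do not settle. The fit with the replicate block gave the same number of members called in each comparison, for example 1 for ischemia in experiment 1 and 2 for MK25 in ischemic culture. At any fold it lost the DGAT2 rise with MK25 in ischemic culture (adjusted p = 0.0556) and gained ABHD5 for MK25 against VX745 there (adjusted p = 0.0413). With 2 libraries a group, depth did not limit the members, whose lowest read count was 145.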
